A study of Homo sapiens with 12 samples.

Results

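The genes described are 10 amino acid transporters of the plasma membrane: SLC7A11, SLC3A2, SLC7A5, SLC7A1, SLC1A4, SLC1A5, SLC38A1, SLC38A2, SLC6A9 and SLC43A1. They were chosen by name as well-known carriers of cystine, leucine, arginine, serine, glutamine and glycine, with earlier results of these data known. Each was found by its symbol on 1 row of the deposited count table, so all 10 are followed among 10945 rows with a symbol. The cells were HepG2, an established human liver cancer line of wild-type genotype per the labels, so every value describes 1 line. Cells were seeded in EMEM and, 24 h later, moved for 96 h to Plasmax, to HGDMEM (high-glucose DMEM), to LGDMEM (low-glucose DMEM) or to fresh EMEM. Plasmax is a medium composed after the metabolites of human plasma. The medium was renewed at 48 h, and 10% heat-inactivated bovine serum was present in every medium, EMEM included. Each medium had 3 libraries.

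Cells take up amino acids through families of membrane carriers. Several exchange one amino acid for another, so that glutamine brought in by one carrier can pay for the leucine or cystine brought in by the next. When amino acids run short or the endoplasmic reticulum is stressed, the kinases GCN2 and PERK phosphorylate the initiation factor eIF2, which favours translation of the transcription factor ATF4. ATF4 then switches on many amino acid carriers and enzymes. The cystine carrier SLC7A11 is also a textbook target of NRF2, the transcription factor of the oxidative stress response.

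The promoter letters of these genes are shown because several members changed together and because the ATF4 partner sites are a known feature of the family. RefSeq promoter windows on GRCh38.p14, each reaching 250 bases before to 50 bases after an annotated transcript start, were matched by symbol for 9 of the 10 genes (all but SLC7A11), 16 windows in all. Both strands were searched for TGATGNAA, the composite site of ATF4 with a C/EBP partner. It was found in 5 of the 16 windows, 1 in each of 5 genes. The same letters stood in 3.62% of the 35116 windows of the whole table and in 1.92% of the 12628 windows of genes present in the count table. Counted by gene, 2.61% of 8672 genes of the count table held it in at least 1 window, and genes with several windows have more chances of a match. The 5 matches are printed below with the motif in capitals, on the strand of the gene. In SLC3A2 and SLC1A4 the motif reads on the opposite strand, so the capitals show its reverse complement.
SLC3A2: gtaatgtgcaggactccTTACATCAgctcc
SLC7A1: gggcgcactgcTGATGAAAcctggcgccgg
SLC1A4: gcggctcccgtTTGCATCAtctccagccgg
SLC1A5: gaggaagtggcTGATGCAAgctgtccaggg
SLC38A1: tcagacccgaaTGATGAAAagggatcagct
These stretches lie at chr11:62881719-62881748 on the plus strand for SLC3A2 and at chr13:29595663-29595692 on the minus strand for SLC7A1. Those of SLC1A4 and SLC1A5 lie at chr2:64989381-64989410 on the plus strand and at chr19:46784893-46784922 on the minus strand. That of SLC38A1 lies at chr12:46266502-46266531 on the minus strand. The motif begins 4 bases before 1 of the annotated starts of SLC38A1 and at position 8 from the start of SLC7A1, with the start base as position 1. SLC1A4 and SLC1A5 likewise carry it at 1 of their annotated starts, 7 and 97 bases before it.

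The same site stood in windows of 4 of the 17 listed ATF4 branch genes that had one. Among them were CHAC1, a glutathione-degrading enzyme, and CEBPG, a C/EBP partner of ATF4. Both are printed for comparison, again with the motif in capitals.
CHAC1: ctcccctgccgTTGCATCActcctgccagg
CEBPG: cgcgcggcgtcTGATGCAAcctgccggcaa
The CHAC1 stretch is chr15:40953251-40953280 and the CEBPG stretch chr19:33374060-33374089, both on the plus strand. In CHAC1 the motif reads on the opposite strand.

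A further pair of motifs were searched on both strands, CACGTG (the E-box, bound by MYC and TFE3 among others) and TGACNNNGC (the core of the antioxidant response element, bound by NRF2). The E-box stood in windows of SLC7A5, SLC43A1 and SLC1A5, against 7.26% of all windows and 9.48% of those of genes in the count table, or 12.8% of these genes. SLC1A5 held TGATGNAA as well and rose in each Plasmax comparison, and its E-box is not printed. The 2 genes below held an E-box and no TGATGNAA. Both are leucine carriers whose levels did not pass the test, with all libraries in, in any comparison that follows.
SLC7A5: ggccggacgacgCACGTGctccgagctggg
SLC43A1: cagcgggcgagtCACGTGcgcgtgaaactc
They lie at chr16:87869620-87869649 and chr11:57515797-57515826, both on the minus strand. The antioxidant core stood in windows of 4 of the 9 genes, SLC3A2, SLC7A5, SLC7A1 and SLC1A5. It stood in 13.3% of all windows, in 14.8% of those of genes in the count table and in at least 1 window of 19.8% of these genes, and overlapped none of the other motifs. The windows of SLC38A2 and SLC6A9 held none of the 3 sets of letters. A match is a description of the sequence and shows neither a bound site nor a cause of any level below. An absent match says only that these letters are not in these windows.

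**Figure D1:**
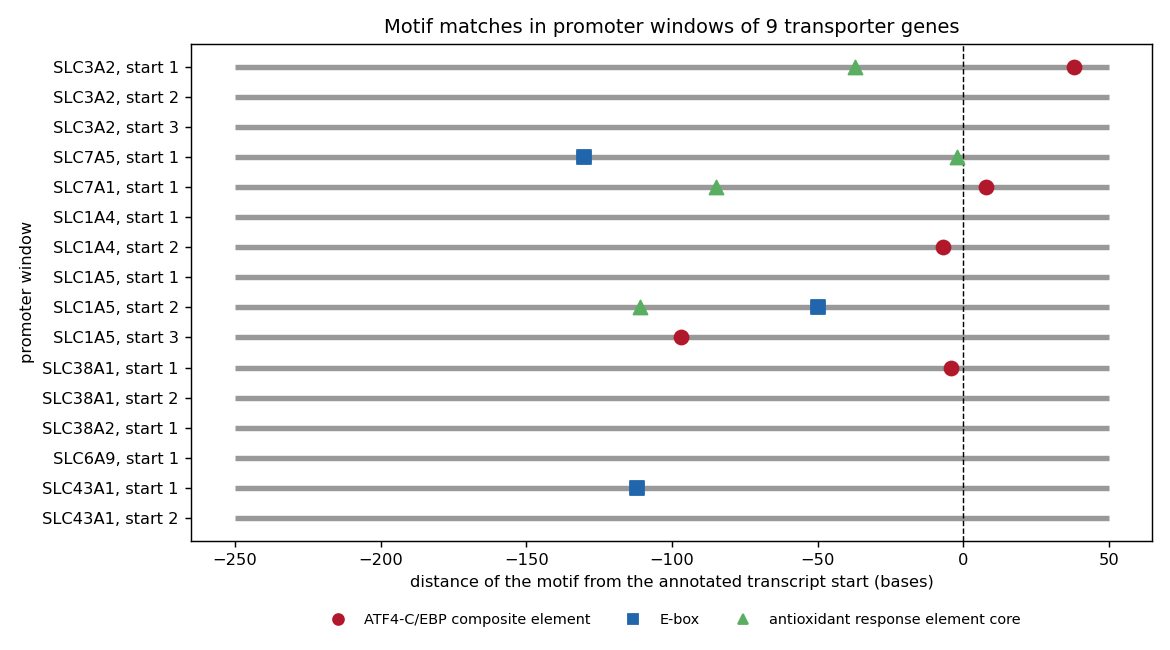
Position of motif matches in the 16 promoter windows of 9 transporter genes. The x axis is the distance in bases from the annotated transcript start (dashed line), each grey bar is 1 window and each symbol 1 match, with the ATF4-C/EBP element as a red circle, the E-box as a blue square and the antioxidant core as a green triangle. The 5 red circles fall in 5 different genes.

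Levels were read from 3′ mRNA sequencing, which counts reads near the end of each transcript. Counts per library on rows with a symbol summed to 3995365 in LGDMEM 1, the shallowest, and to at most 5840057. Levels are given in CPM, read counts set relative to the TMM-scaled library size (edgeR's trimmed mean of M values), and means are given as mean ± SD with n = 3. On principal components of 4366 well-expressed genes the Plasmax libraries lay between −29.7 and −27.5 on the first component, and the other 9 between 0.84 and 15.3. LGDMEM 3 was an outlying library of the second component (−21.5, all others −5.62 to 6.48). The hepatic identity of the cells was checked with 12 liver marker genes, all measured, whose summed level was 16190 to 18500 CPM in Plasmax and 25620 to 32270 CPM in the other media. Of the 12, 2 rose and 6 fell in Plasmax relative to EMEM, 4 rose and 5 fell relative to LGDMEM, and 2 rose and 5 fell relative to HGDMEM. Of all genes 22.1%, 21.2% and 26.9% differed in these comparisons by the test given below. Relative to EMEM the fetal albumin-like protein AFP was at −1.73 and albumin (ALB) at −0.99 on the log2 scale, while the protease inhibitor SERPINA1 was at 0.57. Of 17 markers of leukocyte, endothelial, stromal and biliary cells 7 were measured, and their sum was 2508 to 2740 CPM in Plasmax and 2378 to 3586 CPM elsewhere, most of it from LYZ and KRT19. Of these 7, 3 rose and 2 fell in Plasmax relative to EMEM, beside the 22.1% of all genes that differed there. KRT19, a biliary keratin, averaged 452 ± 22.6 CPM in Plasmax, against 168 ± 13.1 CPM in HGDMEM and 236 CPM in both LGDMEM and EMEM. LYZ averaged 2094 ± 120 CPM in Plasmax, against 2972 ± 320 CPM in EMEM. What part these marker differences play in the transporter results was not tested. In such bulk samples fewer cells of a kind and less RNA per cell cannot be told apart.

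Of the 10 transporters, 7 rose in Plasmax relative to EMEM and none fell. The median log2 fold change of the 10 was 0.80, beside 0.015 over all genes tested. By edgeR's quasi-likelihood test, with p-values adjusted over all 10945 genes by the Benjamini-Hochberg method and a threshold of 0.05, 22.1% of all genes were called in this comparison, 10% as higher in Plasmax and 12.1% as lower. Relative to LGDMEM 5 of the 10 rose and none fell, with a median of 0.61, where 21.2% of all genes were called, 9.48% rose and 11.7% fell. Relative to HGDMEM 7 rose and none fell, with a median of 0.86, where 26.9% of all genes were called, 12.8% rose and 14.1% fell. The 3 comparisons share the Plasmax libraries and are therefore not independent of each other. The 10 were chosen with earlier results of these data known. Their counts beside the shares of all genes are thus a description and no test of the group. Among all 4 media 7 of the 10 differed, beside 22.9% of all genes. The labels do not state that the libraries of a medium are separate cultures, so each p-value speaks only of the spread among these libraries, part or all of which may be technical.

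The reads of the 10 genes made up 0.280% to 0.315% of a library's counts in Plasmax. They made up 0.133% to 0.162% in HGDMEM, 0.129% to 0.251% in LGDMEM and 0.149% to 0.203% in EMEM. Plasmax had the highest mean for 8 of the 10 genes, as for 38.7% of all genes, and LGDMEM for the other 2, SLC7A5 and SLC43A1. The order below Plasmax was LGDMEM, EMEM and HGDMEM for SLC7A11, SLC3A2, SLC7A1, SLC1A4, SLC1A5 and SLC38A2, and LGDMEM, HGDMEM and EMEM for SLC38A1 and SLC6A9. For SLC7A5 and SLC43A1 the order was LGDMEM, Plasmax, HGDMEM and EMEM. With all libraries in the fit, neighbours in these orders differed past the threshold only where Plasmax was one of them, as given gene by gene below.

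**Figure D2:**
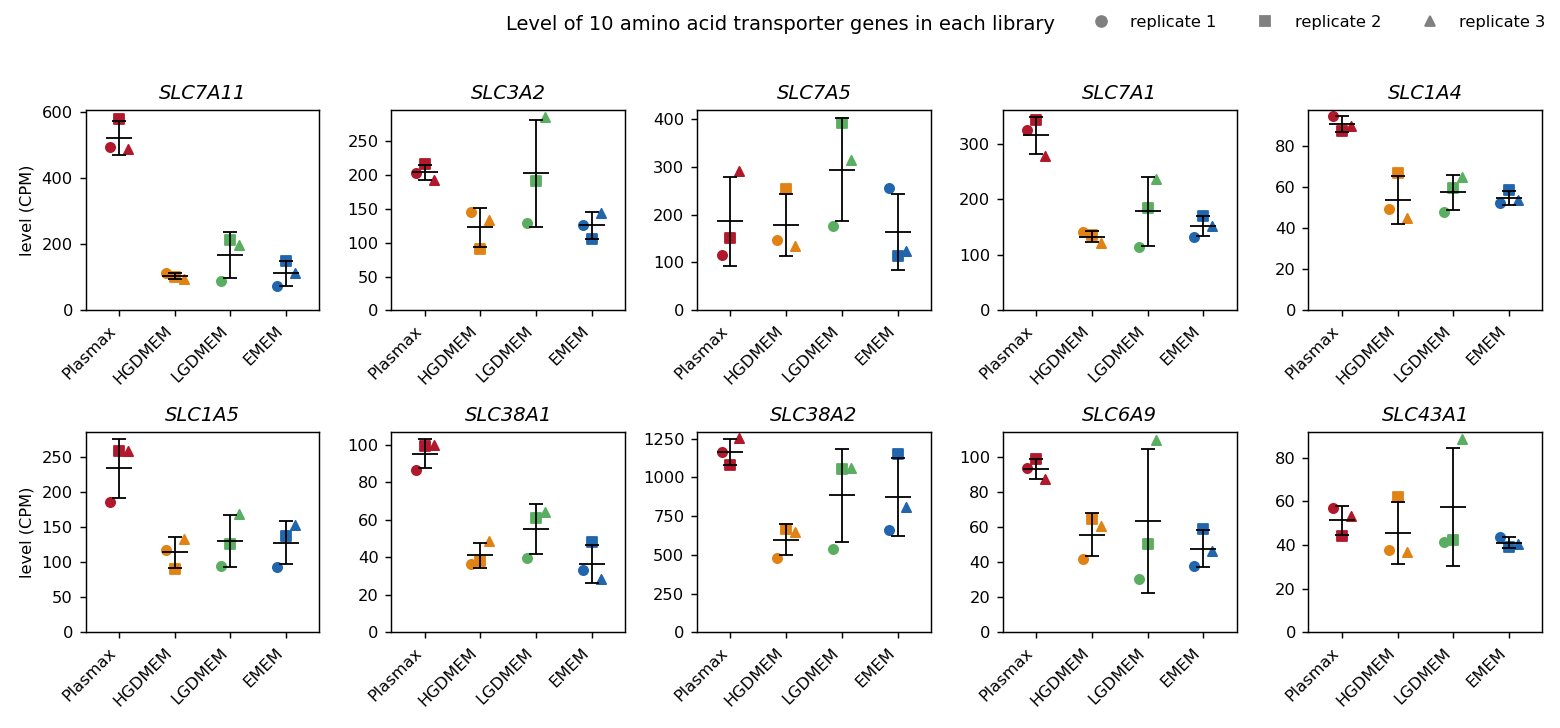
Level of each transporter gene in each library, in CPM on axes that start at 0, with 1 panel a gene. Symbols are the 3 libraries of a medium, the horizontal line is their mean and the error bar 1 SD. The Plasmax points lie above all others for SLC7A11, SLC7A1, SLC1A4, SLC1A5 and SLC38A1, and the groups overlap for SLC7A5.

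SLC7A11 encodes xCT, the light chain that imports cystine in exchange for glutamate. It had 494, 580.1 and 489 CPM in Plasmax, 112, 100.3 and 96.0 CPM in HGDMEM, 88.6, 214 and 199 CPM in LGDMEM, and 74.0, 149 and 113 CPM in EMEM. All 3 Plasmax libraries lay above all 9 others, with no overlap. Its mean was 521 ± 51.4 CPM in Plasmax, 167 ± 68.4 CPM in LGDMEM, 112 ± 37.5 CPM in EMEM and 103 ± 8.46 CPM in HGDMEM. The log2 fold change was 2.22 relative to EMEM (SE 0.26, 95% interval 1.67 to 2.76, 4.64-fold, adjusted p = 8.71e-06). It was 2.34 relative to HGDMEM (SE 0.26, adjusted p = 3.83e-06) and 1.64 relative to LGDMEM (SE 0.25, adjusted p = 0.000168). Among the 10 genes it had the largest fold change in each of these comparisons. The other 3 media, neighbours in the order of means, did not differ from each other past the threshold.

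SLC3A2 encodes 4F2hc (CD98), the heavy chain that carries SLC7A11, SLC7A5 and other light chains to the membrane. It had 203, 216 and 193 CPM in Plasmax, 145, 90.5 and 133 CPM in HGDMEM, 129.7, 191 and 286 CPM in LGDMEM, and 127, 106 and 145 CPM in EMEM. Plasmax lay above HGDMEM and EMEM without overlap, whereas the LGDMEM libraries spanned the whole Plasmax range. Its log2 fold change in Plasmax was 0.70 relative to EMEM (SE 0.22, 95% interval 0.239 to 1.162, adjusted p = 0.0283) and 0.73 relative to HGDMEM (SE 0.22, adjusted p = 0.0186). Relative to LGDMEM it was 0.01 (95% interval −0.45 to 0.47, adjusted p = 0.981). The call against EMEM was lost when any Plasmax library, EMEM 1 or EMEM 2 was left out (log2 fold changes 0.59 to 0.74, adjusted p of 0.0552 to 0.108), and that against HGDMEM without Plasmax 2 (0.69, adjusted p = 0.059) or HGDMEM 2 (0.55, adjusted p = 0.0998). The motif printed above for SLC3A2 begins at position 38 from 1 of its annotated starts, with the start base as position 1.

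The reads of SLC7A11 per read of its heavy chain SLC3A2 numbered 2.43, 2.69 and 2.53 in the Plasmax libraries. They numbered 0.776, 1.11 and 0.722 in HGDMEM, 0.683, 1.12 and 0.695 in LGDMEM, and 0.584, 1.41 and 0.778 in EMEM. The lowest Plasmax ratio was above the highest ratio of the other media. The mean ratio was 2.55 ± 0.13 in Plasmax, against 0.924 ± 0.432 in EMEM, 0.832 ± 0.247 in LGDMEM and 0.869 ± 0.209 in HGDMEM (n = 3 each). An exact two-sided permutation test gave p = 0.1 for each of the 3 comparisons, the smallest p that 3 libraries against 3 allow (adjusted p = 0.12 over 6 ratio tests). The ratio compares changes across media and not the amounts of the 2 proteins.

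SLC7A5 encodes LAT1, another light chain of SLC3A2, which exchanges intracellular glutamine for leucine and other large neutral amino acids. It had 115, 152 and 290.4 CPM in Plasmax, 146, 253 and 135 CPM in HGDMEM, 177, 391 and 314 CPM in LGDMEM, and 255, 113 and 123 CPM in EMEM. The 4 media overlapped, and in each medium 1 library stood well away from the other 2. The log2 fold change in Plasmax was 0.18 relative to EMEM (95% interval −0.55 to 0.91, adjusted p = 0.761) and 0.06 relative to HGDMEM (95% interval −0.67 to 0.79, adjusted p = 0.924). Relative to LGDMEM it was −0.67 (95% interval −1.39 to 0.06, adjusted p = 0.19), and without Plasmax 3 it was −1.14 (adjusted p = 0.0407). The direction against EMEM turned without Plasmax 3 (−0.29) or EMEM 2 (−0.02). That against HGDMEM turned without Plasmax 3 (−0.42), HGDMEM 1 (−0.07) or HGDMEM 3 (−0.10) and with limma voom (−0.008). Its reads per read of SLC3A2 were 0.568, 0.702 and 1.503 in Plasmax, 1.01, 2.79 and 1.02 in HGDMEM, 1.37, 2.04 and 1.10 in LGDMEM, and 2.02, 1.07 and 0.850 in EMEM, so these groups overlapped as well.

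SLC43A1 encodes LAT3, a carrier of leucine and other neutral amino acids that works without a heavy chain. It had 57.1, 44.2 and 53.1 CPM in Plasmax, 37.7, 62.1 and 37.0 CPM in HGDMEM, 41.4, 42.3 and 88.8 CPM in LGDMEM, and 43.7, 39.0 and 40.6 CPM in EMEM. Plasmax lay above EMEM by a narrow gap and overlapped the other media, and LGDMEM 3 was the highest of the 12 libraries. The log2 fold change in Plasmax was 0.33 relative to EMEM (95% interval −0.22 to 0.87, adjusted p = 0.407) and 0.17 relative to HGDMEM (95% interval −0.37 to 0.71, adjusted p = 0.672). Relative to LGDMEM it was −0.16 (95% interval −0.70 to 0.38, adjusted p = 0.706), and 0.30 without LGDMEM 3. The pair of leucine carriers whose E-boxes are printed above had no call in any comparison with all libraries. Their intervals in the 3 Plasmax comparisons include 0. SLC1A5, which also holds an E-box, rose in all 3, and no relation between this motif and the calls was tested. SLC7A5 in LGDMEM relative to EMEM was at 0.85 (95% interval 0.118 to 1.579, adjusted p = 0.557).

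SLC7A1 encodes CAT1, the carrier of arginine and lysine. It had 325, 343 and 278 CPM in Plasmax, 141, 136 and 121 CPM in HGDMEM, 114, 184 and 236 CPM in LGDMEM, and 133, 169 and 152 CPM in EMEM. All 3 Plasmax libraries lay above the 9 others. The log2 fold change was 1.06 relative to EMEM (SE 0.19, 95% interval 0.66 to 1.46, adjusted p = 0.000636), 1.25 relative to HGDMEM (SE 0.19, adjusted p = 9.89e-05) and 0.82 relative to LGDMEM (SE 0.19, adjusted p = 0.00435). The means were 315 ± 33.5 CPM in Plasmax, 178 ± 61.5 CPM in LGDMEM, 151 ± 18.1 CPM in EMEM and 133 ± 10.6 CPM in HGDMEM.

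SLC1A4 and SLC1A5 are related sodium-dependent exchangers of small neutral amino acids. SLC1A4 (ASCT1), which carries serine, alanine and cysteine, had 94.5, 87.2 and 89.5 CPM in Plasmax, 49.3, 66.5 and 44.8 CPM in HGDMEM, 47.7, 59.2 and 64.8 CPM in LGDMEM, and 51.9, 58.2 and 53.6 CPM in EMEM. SLC1A5 (ASCT2), a main route of glutamine uptake in tumour cells, had 186, 258 and 258 CPM in Plasmax, 118, 90.7 and 134 CPM in HGDMEM, 94.7, 126 and 169 CPM in LGDMEM, and 93.2, 137 and 153 CPM in EMEM. For both genes the Plasmax libraries lay above all others. SLC1A4 rose relative to EMEM by a log2 fold change of 0.73 (SE 0.16, 95% interval 0.38 to 1.07, adjusted p = 0.00392), relative to LGDMEM by 0.66 (adjusted p = 0.00769) and relative to HGDMEM by 0.75 (adjusted p = 0.00229). SLC1A5 rose relative to EMEM by 0.87 (SE 0.21, 95% interval 0.43 to 1.32, adjusted p = 0.00609), relative to LGDMEM by 0.85 (adjusted p = 0.00761) and relative to HGDMEM by 1.04 (adjusted p = 0.00136). SLC1A4 had the smallest SD of the 10 genes in Plasmax, at 90.4 ± 3.75 CPM, against 54.6 ± 3.24 CPM in EMEM.

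SLC38A1 and SLC38A2 encode SNAT1 and SNAT2, sodium-coupled carriers of glutamine, alanine and other small neutral amino acids. SLC38A1 had 86.3, 99.5 and 99.6 CPM in Plasmax, 36.4, 38.2 and 48.7 CPM in HGDMEM, 39.6, 60.9 and 64.3 CPM in LGDMEM, and 33.3, 48.1 and 28.6 CPM in EMEM. No other library reached the lowest Plasmax value. The log2 fold change was 1.37 relative to EMEM (SE 0.21, 95% interval 0.93 to 1.81, 2.59-fold, adjusted p = 0.000139), after SLC7A11 the largest of the 10 in this comparison. It was 1.21 relative to HGDMEM (SE 0.21, adjusted p = 0.000278) and 0.79 relative to LGDMEM (SE 0.20, adjusted p = 0.00968). SLC38A1 carries the TGATGNAA stretch nearest to a start, 4 bases before it.

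SLC38A2 differed in pattern. It had 1162, 1081 and 1253 CPM in Plasmax, 483, 666 and 648 CPM in HGDMEM, 538, 1052 and 1064 CPM in LGDMEM, and 659, 1153 and 812 CPM in EMEM. Plasmax lay above HGDMEM and, by a narrow gap, above LGDMEM, and it overlapped EMEM through EMEM 2. It rose relative to HGDMEM by a log2 fold change of 0.96 (SE 0.22, 95% interval 0.50 to 1.42, adjusted p = 0.0032). The value was 0.41 relative to EMEM (95% interval −0.04 to 0.87, adjusted p = 0.188) and 0.40 relative to LGDMEM (95% interval −0.06 to 0.85, adjusted p = 0.212). Without EMEM 2 the difference from EMEM was 0.67 and past the threshold (adjusted p = 0.0459), and in a fit of the 2 media alone it was 0.41 and past it (adjusted p = 0.0455). The reads of SLC38A1 per read of SLC38A2 numbered 0.0819 ± 0.0091 in Plasmax, against 0.0425 ± 0.0077 in EMEM, 0.0640 ± 0.0084 in LGDMEM and 0.0693 ± 0.0103 in HGDMEM (n = 3 each). The exact two-sided permutation p was 0.1 against EMEM and against LGDMEM, the smallest possible, and 0.3 against HGDMEM (adjusted p = 0.12 and 0.3 over the 6 ratio tests).

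SLC6A9 encodes GlyT1, a sodium- and chloride-coupled glycine carrier. It had 93.9, 99.0 and 87.4 CPM in Plasmax, 42.0, 64.9 and 60.5 CPM in HGDMEM, 30.5, 50.5 and 109.8 CPM in LGDMEM, and 37.9, 59.3 and 46.5 CPM in EMEM. Plasmax lay above HGDMEM and EMEM, and only LGDMEM 3 of the other libraries was higher. The log2 fold change was 0.96 relative to EMEM (SE 0.31, 95% interval 0.316 to 1.604, adjusted p = 0.0308). That call was lost without any Plasmax library, EMEM 1 or EMEM 3 (0.819 to 1.005, adjusted p of 0.0601 to 0.126) and with DESeq2 (0.97, adjusted p = 0.0778). Relative to HGDMEM the value was 0.74 (95% interval 0.11 to 1.38, adjusted p = 0.0792), and it passed the threshold with the replicate number as a block (0.79, adjusted p = 0.0327), with limma voom (0.76, adjusted p = 0.0429) and in a fit of the 2 media alone (0.74, adjusted p = 0.00199). Relative to LGDMEM it was 0.55 (95% interval −0.08 to 1.19, adjusted p = 0.215), and without LGDMEM 3 it was 1.19 and past the threshold (adjusted p = 0.00116, beside 20.7% of all genes called in that fit).

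**Figure D3:**
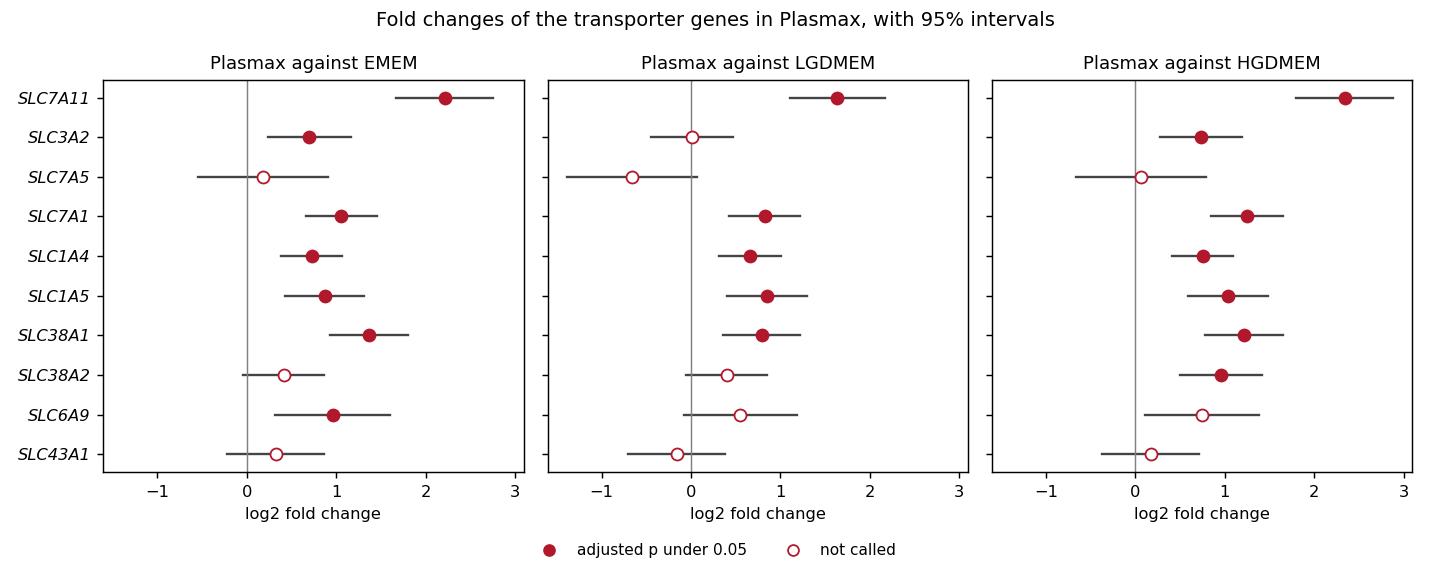
Log2 fold change of each transporter gene in Plasmax relative to EMEM, LGDMEM and HGDMEM, with 95% intervals from edgeR. Filled points passed an adjusted p of 0.05 and open points did not. SLC7A11 lies farthest right in each panel, and SLC7A5 and SLC43A1 are open in all 3.

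Of the 9 genes with a promoter window, the 5 that hold TGATGNAA all rose relative to EMEM. Of the 4 that do not (SLC7A5, SLC38A2, SLC6A9 and SLC43A1), SLC6A9 did. The calls of SLC3A2 and SLC6A9 against EMEM were the ones lost when single libraries were left out, as given above. Relative to LGDMEM 4 of the 5 rose, all but SLC3A2 at 0.01 (adjusted p = 0.981), and none of the other 4. Relative to HGDMEM all 5 rose, and of the other 4 SLC38A2 did. Of all genes 10%, 9.48% and 12.8% rose in Plasmax relative to EMEM, LGDMEM and HGDMEM. In the ATF4 branch list, CHAC1 holds the motif and rose relative to EMEM. CEBPG (0.38, adjusted p = 0.1) and ATF3 (0.94, adjusted p = 0.231) hold it and were not called, and FGF21 was not measured. Genes of that list without it either rose, as PPP1R15A, STC2 and SESN2 did, or were not called, as TRIB3 and DDIT3. Motif and call are set side by side here for genes chosen with earlier results of these data known, and no relation between them was tested.

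Among the 3 conventional media no transporter passed the test. HGDMEM against LGDMEM gave 0 calls among the 10, beside 0.064% of all genes, although all 10 estimates were lower in HGDMEM (median log2 fold change −0.42, −0.72 to −0.09) and 4 had an unadjusted p below 0.05 in edgeR. LGDMEM against EMEM gave 0 calls, beside 0.0731% of all genes, with all 10 estimates positive (median 0.45, 0.02 to 0.85, though SLC38A2 turned to −0.001 with upper-quartile scaling and −0.012 with limma voom) and 4 below 0.05 unadjusted. HGDMEM against EMEM gave 0 calls, beside 0.164% of all genes, with a median of −0.03 and 1 gene below 0.05 unadjusted, SLC38A2 at −0.55 (95% interval −1.003 to −0.090, adjusted p = 0.511). DESeq2 and limma voom also gave 0 calls among the 10 in each of these comparisons. In the same order they called 55, 65 and 68 of all 10945 genes with DESeq2 and 4, 7 and 21 with limma voom.

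Both counts that involve LGDMEM depended on 1 of its libraries. LGDMEM 1 was the lowest of its medium in all 10 transporters, as in 35.3% of all genes, and LGDMEM 3 was the highest in 8, as in 35.5% of all genes. Without LGDMEM 1, 4 transporters fell in HGDMEM relative to LGDMEM, where 1.08% of all genes were then called and 0.923% fell. SLC7A11 fell by 1.00 on the log2 scale (adjusted p = 0.0134), SLC3A2 by 0.96 (adjusted p = 0.0168), SLC38A2 by 0.82 (adjusted p = 0.0275) and SLC7A1 by 0.66 (adjusted p = 0.0344). In LGDMEM relative to EMEM 2 then rose, SLC7A11 by 0.88 (adjusted p = 0.0367) and SLC3A2 by 0.93 (adjusted p = 0.0271), where 0.795% of all genes were called and 0.585% rose. LGDMEM 1 also had the smallest count total, and the part of its depth in these values was not tested. With LGDMEM 1 left out, the 5 transporters that rose in Plasmax relative to LGDMEM were still called, beside 15.8% of all genes, of which 6.72% rose.

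**Figure D4:**
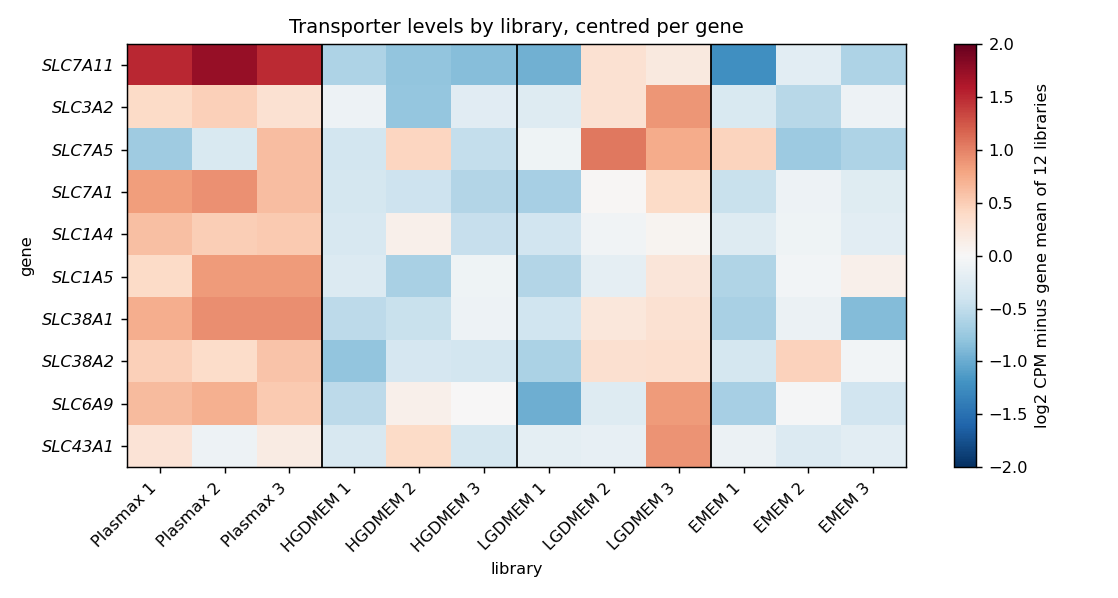
Level of each transporter gene in each library on the log2 CPM scale, centred on the gene's mean over the 12 libraries, with red above and blue below it. The Plasmax columns are red for SLC7A11, SLC7A1, SLC1A4, SLC1A5 and SLC38A1, and LGDMEM 1 is blue or near white in all 10 genes.

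The members were also compared over the 12 libraries by the root mean square difference of log2 CPM centred on each gene's mean. Levels were not scaled, so the measure takes in the size of a gene's changes as well as their shape, and 0 would be the same in both. SLC7A1 was the closest member to 5 others, at 0.25 from SLC1A4, 0.26 from SLC1A5, 0.27 from SLC38A1, 0.32 from SLC6A9 and 0.36 from SLC3A2. The closest to SLC7A11 was SLC38A1 at 0.50, and the closest to SLC7A5 was SLC43A1 at 0.53, so SLC7A11 and SLC7A5 lay farthest from the rest by this measure. They also had the largest SD of log2 level over the libraries, 1.06 and 0.62. Outside the 10, the genes averaging 10 CPM or more that were most like SLC7A11 were GRB10 (an adaptor of insulin and growth factor receptors) at 0.25, S100P (a calcium-binding protein) at 0.27 and TUBB2B (a beta tubulin) at 0.27. CD55, which restrains complement, followed at 0.30 and TIMP1, an inhibitor of metalloproteinases, at 0.33. GRB10 averaged 77.6 CPM in Plasmax, 14.4 CPM in HGDMEM, 17.8 CPM in LGDMEM and 13.9 CPM in EMEM. The measure is a description over libraries that share 4 media, and it carries no p-value.

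Other amino acid carriers of the cell surface were called 3, 1 and 4 times among 11 measured, relative to EMEM, LGDMEM and HGDMEM, beside the 22.1%, 21.2% and 26.9% of all genes called there, so these counts are not a result about the carriers as a group. Of 28 listed, 11 were measured, of which 2 rose and 1 fell in Plasmax relative to EMEM (median 0.12 on the log2 scale). SLC7A2 (CAT2, a second arginine carrier) rose by 1.38 (SE 0.32, adjusted p = 0.00509), with 41.8, 43.4 and 60.8 CPM in Plasmax against 19.7, 25.6 and 10.7 CPM in EMEM. SLC6A14, a broad carrier of neutral and cationic amino acids, rose by 1.24 (SE 0.26, adjusted p = 0.00191), and SLC16A10 (TAT1, an exporter of aromatic amino acids) fell by 1.04 (SE 0.30, adjusted p = 0.0193). SLC6A14 was not called relative to LGDMEM (0.47, adjusted p = 0.191) or HGDMEM (0.15, adjusted p = 0.701). It averaged 45.1 CPM in Plasmax, 40.7 CPM in HGDMEM, 32.35 CPM in LGDMEM and 18.95 CPM in EMEM. Relative to LGDMEM 1 rose and none fell, and relative to HGDMEM 3 rose and 1 fell. Of 14 listed carriers of the lysosome or other internal membranes 11 were measured. Relative to EMEM 1 of them rose, MFSD12 (a lysosomal cysteine importer) by 0.89 (SE 0.18, adjusted p = 0.00204), relative to LGDMEM 2 rose and 1 fell, and relative to HGDMEM 1 rose and 1 fell, again beside those shares of all genes.

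Genes of the ATF4 branch include its regulators and early targets, and 19 of 20 listed were measured. Relative to EMEM 10 rose and none fell (median 0.94), relative to HGDMEM 12 rose and 1 fell (median 1.08), and relative to LGDMEM 2 rose and 3 fell (median 0.12). Of all genes 22.1%, 26.9% and 21.2% were called in these comparisons, so the count against LGDMEM is not a result about the list. The ATF4 transcript itself, named although it was not called, stood at 1921 ± 217 CPM in Plasmax and 1935 ± 308 CPM in EMEM (log2 fold change −0.01, adjusted p = 0.968). CHAC1 had 61 reads over the Plasmax libraries, against 0 over the EMEM libraries, at least 19.7-fold higher with a floor of 3 counts over the medium. At that bound it still lay above the list's median, which is therefore the same. It had 3 reads in LGDMEM 3 alone among the other media. VLDLR, the very low density lipoprotein receptor, rose by 3.96 relative to EMEM (SE 0.75, adjusted p = 0.000962), from only 2, 8 and 6 reads in the EMEM libraries. Relative to LGDMEM it was not called (1.56, adjusted p = 0.0856), and LGDMEM 3 at 13.8 CPM lay within the Plasmax range of 11.4 to 24.0 CPM. SESN2, a leucine sensor that restrains mTORC1, rose by 1.56 relative to EMEM (SE 0.28, adjusted p = 0.000693). SESN2 had 77.0, 62.4 and 65.5 CPM in Plasmax, 15.6, 26.5 and 24.5 CPM in HGDMEM, 27.5, 72.5 and 59.5 CPM in LGDMEM, and 18.7, 28.7 and 21.7 CPM in EMEM, so that LGDMEM 1 lay low here as in the transporters.

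DDIT3 (CHOP, a stress transcription factor) was named after its values were seen. It had 35.0, 36.4 and 27.5 CPM in Plasmax, 16.5, 21.2 and 20.5 CPM in HGDMEM, 31.1, 128 and 116 CPM in LGDMEM, and 19.4, 36.1 and 27.4 CPM in EMEM. LGDMEM 2 and 3 stood far above the other 10 libraries. It fell by 1.48 in Plasmax relative to LGDMEM (SE 0.35, adjusted p = 0.00517) and by 2.24 in HGDMEM relative to LGDMEM (SE 0.36, adjusted p = 0.0122). Between LGDMEM and EMEM the 19 genes had a median of 0.76 with 0 calls, beside 0.0731% of all genes called. There DDIT3 was at 1.72 (adjusted p = 0.0826).

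Genes that make amino acids and genes that use cystine were taken from a pair of lists. Of 13 measured genes of serine, asparagine and proline synthesis, out of 15 listed, 6 rose and 2 fell in Plasmax relative to EMEM (median 0.44), 4 rose and 1 fell relative to LGDMEM, and 5 rose and 2 fell relative to HGDMEM. The serine synthesis enzyme PSAT1 averaged 852 ± 39.4 CPM in Plasmax and 334.5 ± 42.4 CPM in EMEM, a log2 fold change of 1.35 (SE 0.15, adjusted p = 5.96e-06). PHGDH, the first enzyme of that pathway, rose by 1.02 (SE 0.17, adjusted p = 0.000398), and MTHFD1L, of mitochondrial folate metabolism, by 1.23 (SE 0.20, adjusted p = 0.000249). Of 14 measured genes of cystine use and glutathione (15 listed), 4 rose and 1 fell relative to EMEM, 2 rose and 1 fell relative to LGDMEM, and 5 rose and 2 fell relative to HGDMEM. The counts of both lists stand beside 22.1%, 21.2% and 26.9% of all genes called. The cystine and glutathione count against LGDMEM is therefore not a result about that list. CTH, which makes cysteine from cystathionine, rose by 1.98 relative to EMEM (SE 0.37, adjusted p = 0.000914), and GPX1, a glutathione peroxidase, by 0.93 (SE 0.17, adjusted p = 0.000912). CHAC1 is on this list too.

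NRF2 targets, of which SLC7A11 is itself one, moved in both directions. Of 18 measured (20 listed) 3, with SLC7A11 among them, rose in Plasmax relative to EMEM and 6 fell (median −0.32). Relative to LGDMEM 2 rose and 9 fell, and relative to HGDMEM 4 rose and 7 fell. PRDX1, a peroxiredoxin, averaged 1844 ± 96.2 CPM in Plasmax and 3734 ± 151 CPM in EMEM, a log2 fold change of −1.02 (SE 0.11, adjusted p = 2.78e-06). TXNRD1, the cytosolic thioredoxin reductase, rose by 0.80 (SE 0.20, adjusted p = 0.00643). Of 17 measured genes of mTORC1 amino acid sensing (22 listed), 1 rose and 1 fell relative to EMEM, 0 rose and 2 fell relative to LGDMEM, and 1 rose and 1 fell relative to HGDMEM. SESN2 was the one that rose, and FLCN, the folliculin GTPase activator, fell by 0.58 relative to EMEM (SE 0.20, adjusted p = 0.0484). The mTORC1 list's count of 2 against EMEM became 1 in 8 of the alternative settings. Of all genes 22.1%, 21.2% and 26.9% were called relative to EMEM, LGDMEM and HGDMEM. The mTORC1 counts are therefore not a result about that list, and the NRF2 counts stand beside the same shares.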

How the data were processed

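HepG2 RNA from 4 media was sequenced as 12 QuantSeq 3′ libraries, 3 a medium, per the labels. The authors deposited 1 table of raw counts per gene, with no normalization stated. The submitters' processing notes name, without role or order, featureCounts 1.6.3, STAR 2.7.5b, limma 3.40.6, cutadapt 1.16, FastQC 0.72 and the build hg19/GRCh37, and strand use in counting is not given in the sources used here. Deposited totals were 4131093 to 6015796 counts per library and rows of low counts appear to have been removed beforehand, so they are not full depth. Of 11546 rows, 601 had no symbol (2.92% to 3.71% of counts) and were left out.

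The remaining 10945 rows went into edgeR 4.0.16 under R 4.3.3 (quasi-likelihood, TMM, all 12 libraries, no block, 6 pairwise contrasts and 1 test over 4 media, Benjamini-Hochberg adjustment at 0.05). Its filterByExpr step removed 0 genes. The coefficient of variation was 0.215. "Rose" and "fell" mean past that threshold, SE is the fold change over the root of F, and the likeness of genes used log2 CPM (prior count 2). The procedure was tested on simulated data for Plasmax against EMEM. It recovered 74% of 100 log2 changes of 1 and 98% of 100 changes of 2, with 9 false calls. The changes were set only in Plasmax, in 200 genes drawn from those with higher counts. In the data 22.1% of all genes were called in this comparison, so recovery there may differ. Smaller changes were not simulated. Genes on 2 rows (5 symbols) do not include the 10. The reference at hand is of another build, so no gene coordinates are given, and promoter windows come from RefSeq on GRCh38.p14 by symbol.

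The 10 genes and the 9 other lists were chosen with earlier results of these data known. All 10 are named, and from each list the called genes with the largest change relative to EMEM, at most 3. Other genes were chosen after their values were seen. Media share replicate numbers, so it was checked whether libraries of a number deviate together. Over the 4366 genes averaging more than 5 in log2 CPM, HGDMEM against LGDMEM (0.246, 0.165, 0.21) and HGDMEM against EMEM (0.186, 0.11, 0.124) had correlations above 0.1 for all 3 numbers. The other comparisons did not (LGDMEM against EMEM 0.325, 0.193 and −0.0121). Over all genes the former pair had 0.112, 0.0693 and 0.0687, and 0.128, 0.0669 and 0.048. These 2 comparisons may be paired, but the labels do not say what the number stands for. The main fit therefore has no block, and the block is an alternative. Plasmax 1 carries library number 12, so its number may not match. Alternatives were the replicate block, RLE, upper-quartile and library-size scaling, no filter, a filter at a mean of 5 CPM (9380 genes), limma voom (3.58.1), DESeq2 1.42.0, the 2 media alone, and leaving out each library.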

Additional observations from a re-analysis of the deposited data

How the results depend on the processing

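Over 15 alternative settings for each of 6 pairwise comparisons, 16 of the 19 transporter calls were kept in each, the 3 others being SLC3A2 (relative to EMEM and to HGDMEM) and SLC6A9 (relative to EMEM), and no called value turned its sign. The setting without a filter repeats the main fit, whose filter removed 0 genes, so its agreement was fixed in advance. Counts of transporters called when 1 library was left out ran 5 to 7 for Plasmax against EMEM, 5 to 6 against LGDMEM, 6 to 7 against HGDMEM and 6 to 8 over the 4 media. Of all 10945 genes, 1693 to 2109, 1666 to 2265, 2256 to 2434 and 1685 to 2749 were called in the same fits. The transporter counts ran 0 to 4 for HGDMEM against LGDMEM and 0 to 2 for LGDMEM against EMEM, the upper values without LGDMEM 1, and stayed 0 for HGDMEM against EMEM. There 4 to 118, 2 to 87 and 1 to 7 of all genes were called. With the replicate block the counts were 7, 5 and 8 for Plasmax against EMEM, LGDMEM and HGDMEM, 8 over the 4 media and 0 for the 3 comparisons without Plasmax, and the calls it changed were those of SLC6A9, added against HGDMEM and over the 4 media. Of all 10945 genes, the block fit called 2529, 2414 and 3045 in these Plasmax comparisons and 2640 over the 4 media. It called 15 in HGDMEM against LGDMEM, 23 in HGDMEM against EMEM and 15 in LGDMEM against EMEM. With the block SLC38A2 was at −0.003 in LGDMEM against EMEM, where it was also at −0.001 with upper-quartile scaling and −0.012 with limma voom.

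Uncalled log2 fold changes that turned sign when 1 library was left out had these ranges, and beyond the library left out the cause was not tested. In Plasmax, SLC7A5 ran −0.29 to 0.65 against EMEM and −0.42 to 0.39 against HGDMEM (−0.008 with limma voom), and against LGDMEM SLC3A2 ran −0.23 to 0.34 and SLC43A1 −0.35 to 0.30. In HGDMEM against LGDMEM, SLC1A4 ran −0.28 to 0.018, SLC1A5 −0.37 to 0.045, SLC6A9 −0.52 to 0.45 and SLC43A1 −0.62 to 0.13. In HGDMEM against EMEM, SLC7A11 ran −0.35 to 0.15, SLC3A2 −0.17 to 0.15, SLC7A5 −0.21 to 0.59, SLC1A4 −0.21 to 0.086 and SLC43A1 −0.13 to 0.28. With library size alone SLC3A2 was there at 0.008 and SLC1A4 at 0.019. In LGDMEM against EMEM, SLC7A1 ran −0.019 to 0.47, SLC1A4 −0.027 to 0.18, SLC1A5 −0.21 to 0.21, SLC38A2 −0.15 to 0.27 and SLC6A9 −0.24 to 0.73.

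List counts also moved. The 3 calls among other surface carriers in Plasmax against EMEM became 5 with the replicate block, limma voom, the stricter filter or the 2 media alone and 6 with DESeq2. Cystine and glutathione genes ran 2 to 6 (main 3) against LGDMEM and 3 to 8 (main 7) against HGDMEM. ATF4 branch genes ran 3 to 6 (main 5) against LGDMEM. The 2 calls in mTORC1 sensing against EMEM became 1 in 8 settings. Over the settings 1693 to 2687 of all genes were called in Plasmax against EMEM, the upper value with DESeq2. Against LGDMEM 1666 to 2568 were called, and against HGDMEM 2256 to 3199. Over all genes, DESeq2 called 55, 68 and 65 in HGDMEM against LGDMEM, HGDMEM against EMEM and LGDMEM against EMEM, where edgeR called 7, 18 and 8, and without LGDMEM 1 edgeR called 118 in the first and 87 in the last. With 3 libraries a medium, the intervals given bound the differences that could be seen. Counts near the ends of transcripts do not report isoforms, protein or transport.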
